A study of Mus musculus with 6 samples.

Results

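Open chromatin was examined at 9 genes of the basement membrane, of 18172 genes named in the deposited tables, in primary mouse lung fibroblasts. The genes were Col4a1 and Col4a2 (collagen IV), Lamc1, Lamb1, Lamb3 and Lama4 (laminin chains), Hspg2 (perlecan), and Nid1 and Nid2 (nidogens). The regions were selected by gene name and distance: a region counted when the authors' annotation gave it one of these names and placed it within 100 kb of the gene's transcription start. Col4a1 and Col4a2 were counted as 1 locus, which leaves 8 loci. The rule took 71 of 64217 regions in the deposited table that sets plastic against 32 kPa, 10 of 2121 in the table of 32 kPa against 0.2 kPa and 3 of 2114 in the table of plastic against 0.2 kPa. The genes were chosen with the listings against 0.2 kPa already known, so those listings are given as a description.

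The cells were GFP-positive fibroblasts, sorted by flow cytometry from lungs of Col1a1-GFP transgenic mice. All were kept for 8 days on collagen I-coated surfaces in medium with 10% serum, and the surfaces were 0.2 kPa PDMS (a soft silicone), 32 kPa PDMS (a stiff silicone) or tissue-culture plastic. There were 2 libraries of 50000 cells for each surface, made by Omni-ATAC-seq. In this method a transposase inserts sequencing adapters where DNA is accessible. The labels give no other treatment, and the reporter selects cells by the activity of a collagen I gene, so cells without it were not sampled. The labels do not state whether the 2 libraries were made from different mice, so the spread behind the authors' p-values may be technical.

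A basement membrane is a thin sheet of extracellular matrix that underlies epithelium and endothelium and surrounds muscle and fat cells. Laminins, each a trimer of an α, a β and a γ chain, polymerise at the cell surface, collagen IV forms a second network, and nidogens and perlecan link the sheets. In the lung this matrix separates alveolar epithelium from capillaries, and mesenchymal cells contribute part of its collagen IV, laminin and nidogen.

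Levels are the authors' means per culture, in log2 normalised reads per region, and each fold is a difference of log2 means, so that a fold of 1 is a doubling. The tables hold no value per library and no read counts, so the spread between libraries and the depth are unknown. Regions within 1 kb of the start were present at 8 of 8 fibroblast marker genes, 0 of 5 epithelial, 2 of 4 endothelial (Kdr and Tek), 0 of 3 leukocyte and 1 of 5 pericyte, smooth muscle and mesothelial markers (Myh11, 5.45 on plastic and 5.25 on 32 kPa). Their levels were 2.97 to 6.15 on plastic and 3.76 to 6.14 on 32 kPa at the fibroblast markers, and 3.02 to 3.71 on plastic and 3.08 to 3.13 on 32 kPa at the endothelial ones. In such bulk libraries a change in the share of cells with an open region and a change in accessibility per cell cannot be told apart.

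Regions listed as more accessible on 32 kPa PDMS than on 0.2 kPa lay at 7 of the 8 loci, with none at Lamb1. Only folds of at least 1 were listed, so a fall could not appear. Lamb1 had no region high enough on 32 kPa to be listed. The collagen IV locus had 4 of the 10 regions, and Lamc1, Lamb3, Lama4, Hspg2, Nid1 and Nid2 had 1 each. In the authors' deposited table the folds lay between 1.0 and 1.31, with a median of 1.11, and the FDR between 0.00218 and 0.0457. The median over all 1930 regions listed within 100 kb of a start was also 1.11. Of all 53913 regions within 100 kb in the table of plastic against 32 kPa, 3.59% overlapped a region listed for 32 kPa, and 12.5% of the 15438 that reached the lowest listed level of 4.97 on 32 kPa. Of the 71 basement membrane regions, 25 reached that level and 10 overlapped a listed region. Because the genes were chosen with this contrast known, nothing is read from the difference between these shares.

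The collagen IV genes lie head to head, with starts 20 bases apart by the annotated distances, and are transcribed away from each other. There is no gap between them. In RefSeq, Col4a1 reaches position 11312889 and Col4a2 begins at 11312805, so they overlap at their starts. A distant region is therefore named after one gene while it lies in the body of the other: all 10 regions named Col4a1 were in introns of Col4a2, and 8 of the 9 named Col4a2 were in introns of Col4a1. Col4a1 and Col4a2 encode the α1 and α2 chains of the most widespread collagen IV trimer.

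The largest of these folds on 32 kPa was in intron 4 of Col4a2, 69.8 kb from the paired starts (chr8:11382469-11382859, mm10). Its level was 6.56 on 32 kPa and 5.25 on 0.2 kPa, or 94.4 normalised reads on 32 kPa and 38.1 on 0.2 kPa. The authors' deposited table gives it a fold of 1.31 with FDR = 0.00218, position 130 of 2121 by p-value. In intron 2 of Col4a1, 62.9 kb away on the opposite side (chr8:11249712-11250071), the level was 5.97 on 32 kPa and 4.71 on 0.2 kPa (fold 1.27, FDR = 0.00911 in the authors' deposited table). Listed rises thus lay in introns of both collagen IV genes. The unlisted regions of these introns have no level on 0.2 kPa here.

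Nearer the starts, in intron 3 of Col4a2 (15.3 kb), the level was 5.85 on 32 kPa and 4.83 on 0.2 kPa (fold 1.02, FDR = 0.041 in the authors' deposited table). A further region in intron 4 of Col4a2, 80.5 kb from the starts (chr8:11393164-11393522), had 5.75 on 32 kPa and 4.72 on 0.2 kPa (fold 1.03, FDR = 0.0346 in the authors' deposited table). These folds were close to the lowest that the table lists, 1.0.

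Lamc1, which encodes the laminin γ1 chain shared by most laminins, was the locus whose listed region was a promoter. This region (chr1:153332648-153333239) had a level of 6.67 on 32 kPa and 5.54 on 0.2 kPa, or 102 normalised reads on 32 kPa and 46.5 on 0.2 kPa (fold 1.13, FDR = 0.00491 in the authors' deposited table). The other Lamc1 regions, 6 in number, had levels of 3.92 to 4.57 on 32 kPa, below the lowest listed level.

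Lama4 and Lamb3 were listed at introns. Lama4, the gene of the laminin α4 chain found in vessels, muscle and other mesenchyme, had a region in intron 1, 29.4 kb into the gene, with 5.59 on 32 kPa and 4.48 on 0.2 kPa (fold 1.10, FDR = 0.0385 in the authors' deposited table). Lamb3 encodes the laminin β3 chain, best known from the basement membranes of skin and other epithelia. Its listed region in intron 3, 15.1 kb from the start, had 5.60 on 32 kPa and 4.60 on 0.2 kPa (fold 1.0, FDR = 0.0457 in the authors' deposited table), which is the smallest of these folds on 32 kPa. No region within 1 kb of the Lamb3 start was in the table of plastic against 32 kPa, whose nearest Lamb3 region lay 3.65 kb upstream.

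Perlecan and the nidogens, the linking proteins of the sheet, were listed at 1 intronic region each. Their values were close to each other and to those of the Lama4 and Lamb3 introns, so the likeness is not particular to them. At Hspg2, in intron 1 of 96 and 26.5 kb from the start, the level was 5.69 on 32 kPa and 4.54 on 0.2 kPa (fold 1.14, FDR = 0.0268 in the authors' deposited table). At Nid1, in intron 5 of 19 and 37.6 kb from the start, it was 5.63 on 32 kPa and 4.48 on 0.2 kPa (fold 1.14, FDR = 0.0263 in the authors' deposited table). At Nid2, in intron 8 of 20 and 35.2 kb from the start, it was 5.62 on 32 kPa and 4.53 on 0.2 kPa (fold 1.09, FDR = 0.0319 in the authors' deposited table). Each of these 3 regions lay well inside its gene, away from the promoter.

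**Figure D1:**
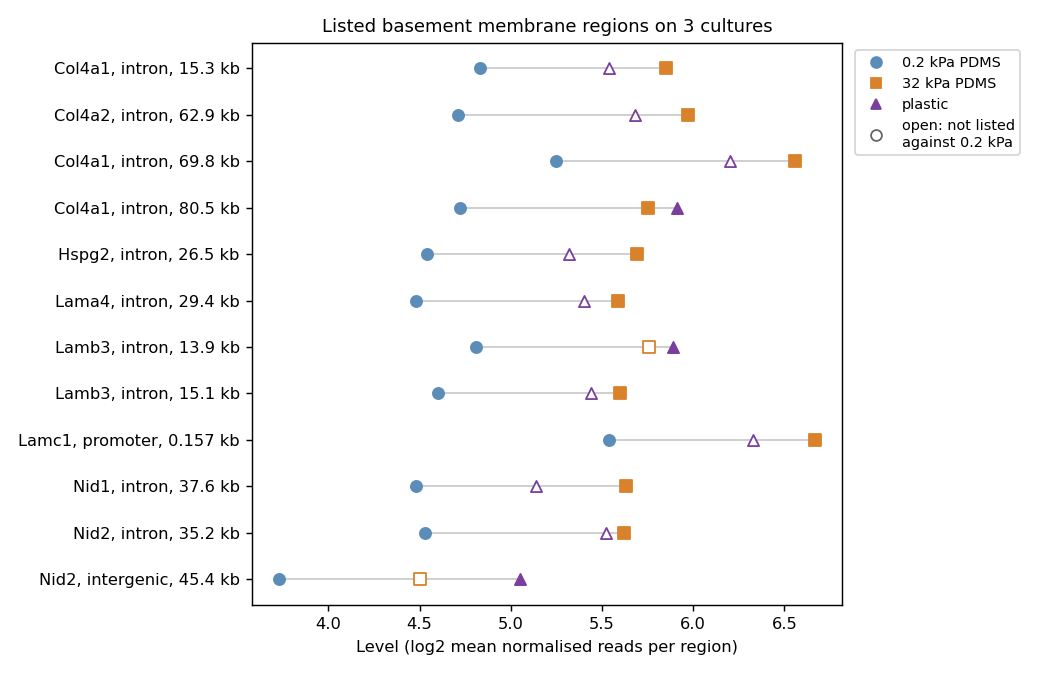
Level of each listed basement membrane region (rows, with the gene the authors name, its location and its distance from the start in kb) on 0.2 kPa, 32 kPa and plastic, in log2 mean normalised reads per region on the horizontal axis. Filled symbols mark the stiffer culture on which the region was listed, and open symbols the other stiffer culture, read from the table of plastic against 32 kPa; in all 12 rows the 0.2 kPa level is the lowest, which the listing fixes for the filled symbols.

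Fibroblasts on plastic had 3 such regions listed as more accessible than on 0.2 kPa, at the collagen IV locus, Lamb3 and Nid2. Over all regions within 100 kb, 3.37% overlapped a region listed for plastic, and 11.2% of the 16191 that reached the lowest level listed there, 4.94. Of the basement membrane regions, 26 reached that level and 3 overlapped a listed region, and again nothing is read from these shares. The same 0.2 kPa libraries enter both comparisons.

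The collagen IV region was the one 80.5 kb from the starts that was also listed for 32 kPa. It had 5.91 on plastic and 4.71 on 0.2 kPa (fold 1.21, FDR = 0.00885 in the authors' deposited table). At Lamb3 a second region of intron 3, 13.9 kb from the start and 925 bases from the one listed for 32 kPa, had 5.89 on plastic and 4.81 on 0.2 kPa (fold 1.08, FDR = 0.0184 in the authors' deposited table). An intergenic region 45.4 kb upstream of Nid2 (chr14:19705787-19705997) had 5.05 on plastic and 3.73 on 0.2 kPa (fold 1.32, FDR = 0.0366 in the authors' deposited table). It was the lowest region of the group on 0.2 kPa, at 13.3 normalised reads.

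At the 11 regions listed on 1 stiffer culture alone, the level on the other stiffer culture was also above that on 0.2 kPa. At the 10 regions listed for 32 kPa, the plastic level lay 0.66 to 1.20 above that on 0.2 kPa, with a median of 0.88, against a median of 0.94 for all listed regions within 100 kb. It was lowest at Nid1, with levels of 4.48 on 0.2 kPa, 5.63 on 32 kPa and 5.14 on plastic. At the Lamc1 promoter the levels were 5.54 on 0.2 kPa, 6.67 on 32 kPa and 6.33 on plastic. Of these 10 differences 9 were short of the fold of 1 at which the tables begin, the exception being the collagen IV region at 80.5 kb, which was listed on plastic too. Of all regions listed for 32 kPa within 100 kb, 742 of 1926 reached 1 on plastic. No test of these differences was available.

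The Lamb3 intron showed how near the listing threshold the values lay. Its region 13.9 kb from the start had 4.81 on 0.2 kPa, 5.76 on 32 kPa and 5.89 on plastic, so 32 kPa was 0.95 above 0.2 kPa. The neighbour at 15.1 kb had 4.60 on 0.2 kPa, 5.60 on 32 kPa and 5.44 on plastic, so plastic was 0.84 above 0.2 kPa. At the upstream Nid2 region the levels were 3.73 on 0.2 kPa, 4.50 on 32 kPa and 5.05 on plastic. Each such difference is taken from the same soft-culture value that entered the listing.

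Most of the listed regions were intronic, 10 of the 12, with 1 promoter (Lamc1) and 1 intergenic region (upstream of Nid2). Of the 10 listed for 32 kPa, 9 were in introns and 1 was a promoter, whereas 25.3% of all regions listed within 100 kb were in introns and 49.8% were promoters. Of the 3 listed for plastic, 2 were in introns and none was a promoter, whereas 27.1% of all regions listed there within 100 kb were in introns and 45.5% were promoters. Of the 71 basement membrane regions as a whole, 49 were in introns and 7 were promoters, against 37.7% and 23.3% of all regions within 100 kb. These genes are long, from 49.5 kb for Lamb3 to 145 kb for Lama4 in RefSeq. None of the 13 listed intervals was annotated as a repeat, against 4.46% of all those listed for 32 kPa and 8.51% of those listed for plastic within 100 kb. These shares are descriptions of a chosen group of genes and were not tested.

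**Figure D2:**
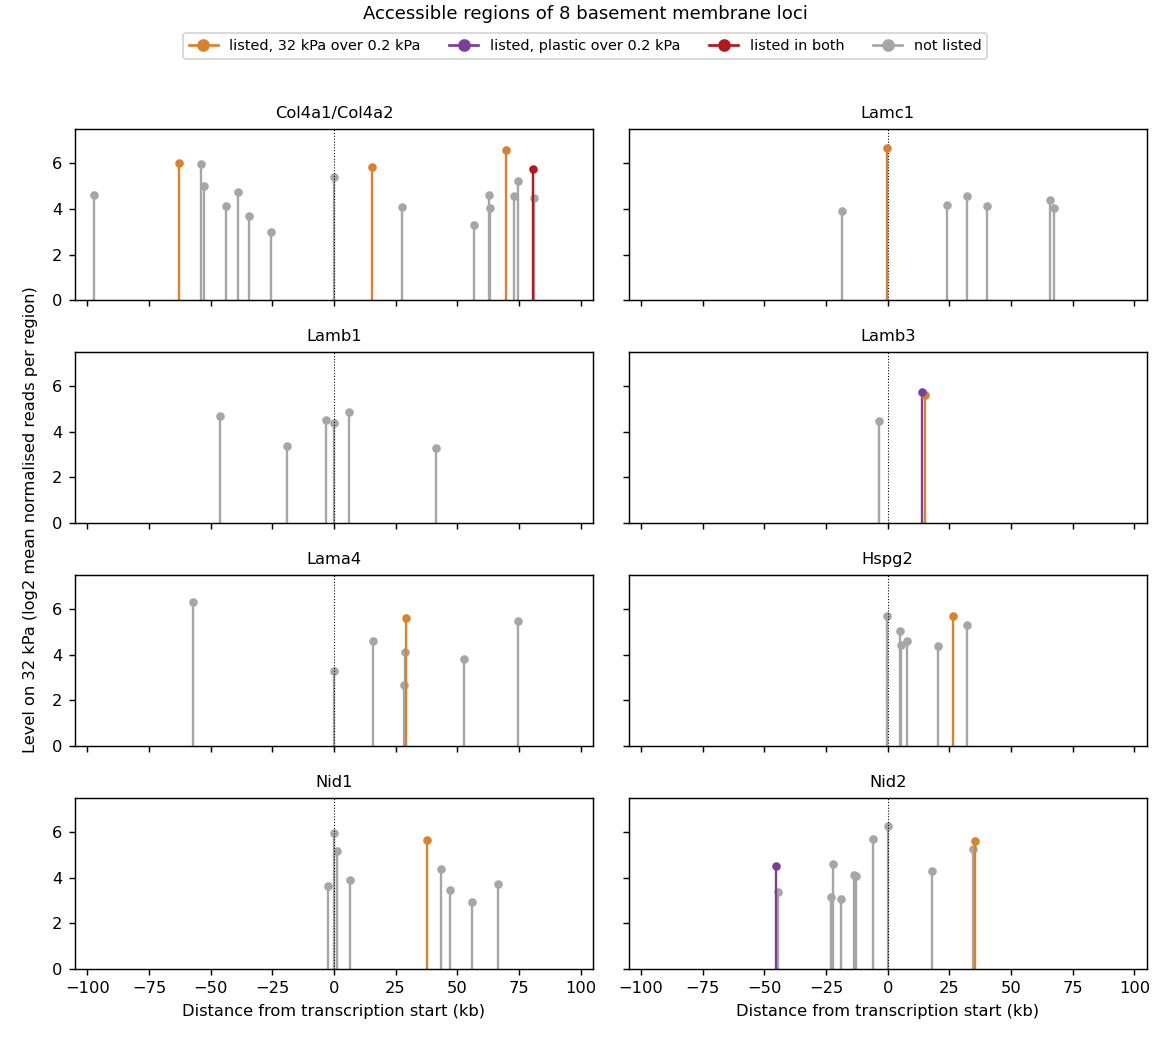
The 71 regions of the 8 loci by signed distance from the transcription start in kb (horizontal axis, negative upstream) and level on 32 kPa in log2 mean normalised reads per region (vertical axis). For the collagen IV locus, the body of Col4a2 is to the right of 0 and that of Col4a1 to the left. Listed regions are coloured, and 11 of the 12 lie 13.9 kb or more from the start, the exception being the Lamc1 promoter.

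Of the 25 regions high enough to be listed for 32 kPa, 15 were not listed, namely 4 promoters, 9 intronic and 2 intergenic regions. The promoters were those of the collagen IV pair, Hspg2, Nid1 and Nid2. The highest of the 15 was an intergenic region 57.1 kb upstream of Lama4, with 6.59 on plastic and 6.31 on 32 kPa. One of the 15, the Lamb3 region 13.9 kb from the start, was listed for plastic and so has its soft-culture level given above. For the other 14 that level was not analysed here, so a rise below a fold of 1, no difference or a fall cannot be told apart. Lamb1, which encodes the laminin β1 chain, had no region at or above 4.97 on 32 kPa. Its highest region, in intron 3, 6.24 kb from the start, had 5.50 on plastic and 4.86 on 32 kPa. On plastic that region was above the lowest level listed there, 4.94, and it was not listed.

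Promoters differed in how accessible they were. At Lamc1, Nid2, Nid1 and Hspg2 the promoter had the highest level per region of its locus. This was 6.33 on plastic and 6.67 on 32 kPa at Lamc1, and 6.17 on plastic and 6.27 on 32 kPa at Nid2. It was 5.87 on plastic and 5.95 on 32 kPa at Nid1, and 5.79 on plastic and 5.71 on 32 kPa at Hspg2. The Hspg2 intron 1 region 26.5 kb from the start had 5.32 on plastic and 5.69 on 32 kPa. That region spanned 266 bases and the Hspg2 promoter 371, so their order depends on width on both cultures. Narrower Hspg2 introns also exceeded the promoter per 100 bases on both cultures, such as one of 124 bases with 4.42 on plastic and 4.44 on 32 kPa. At Nid1 the promoter spanned 305 bases. An intron 1 region of 194 bases there, with 5.24 on plastic, slightly exceeded it per 100 bases on plastic. The Hspg2 and Nid1 promoters thus ranked highest per region only. Per 100 bases, the promoter level was highest at Nid2, with 4.55 on plastic and 4.65 on 32 kPa. Nid1 followed, with 4.26 on plastic and 4.34 on 32 kPa. Lamc1 had 3.76 on plastic and 4.10 on 32 kPa, Hspg2 had 3.90 on plastic and 3.82 on 32 kPa, and the collagen IV promoter had 3.52 on plastic and 3.84 on 32 kPa. The lowest were Lamb1, with 2.87 on plastic and 3.45 on 32 kPa, and Lama4, with 2.89 on plastic and 3.12 on 32 kPa. Without values per library, neighbours in this order cannot be told apart by their spread.

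Promoter sequence was available from RefSeq (GRCm38.p6, the same assembly as mm10) for 6 of the 9 genes. Shown are the parts, within the RefSeq windows of 250 bases before to 50 after a start, of 3 accessible promoters that reached the lowest listed level on 32 kPa and were not listed. The first is the shared collagen IV promoter, chr8:11312653-11312944. The second is Nid1, chr13:13437407-13437651, and the last is Hspg2, chr4:137468553-137468818. All are on the plus strand, 5′ to 3′, and capitals mark matches on either strand to GGGCGG, the GC box bound by Sp factors, to the CCAAT box bound by NF-Y, or to GGAATG, the TEAD motif.

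Col4a1/Col4a2: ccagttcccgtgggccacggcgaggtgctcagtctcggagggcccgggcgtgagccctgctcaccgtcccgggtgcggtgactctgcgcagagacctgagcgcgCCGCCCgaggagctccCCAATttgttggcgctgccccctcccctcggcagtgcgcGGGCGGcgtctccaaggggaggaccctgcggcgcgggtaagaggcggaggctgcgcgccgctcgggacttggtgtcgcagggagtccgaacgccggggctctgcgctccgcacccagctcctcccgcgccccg

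Nid1: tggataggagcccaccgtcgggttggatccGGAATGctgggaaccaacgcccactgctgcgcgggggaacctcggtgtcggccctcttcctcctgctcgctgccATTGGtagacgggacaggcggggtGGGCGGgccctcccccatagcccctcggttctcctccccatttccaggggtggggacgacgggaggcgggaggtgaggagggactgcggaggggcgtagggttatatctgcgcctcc

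Hspg2: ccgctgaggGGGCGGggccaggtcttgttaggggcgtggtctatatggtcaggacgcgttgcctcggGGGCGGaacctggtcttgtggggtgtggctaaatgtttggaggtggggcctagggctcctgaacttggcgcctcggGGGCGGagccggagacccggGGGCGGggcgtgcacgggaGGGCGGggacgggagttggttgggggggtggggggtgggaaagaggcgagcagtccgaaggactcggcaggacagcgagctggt

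These 3 pieces were rich in G and C, with 74.7% at the collagen IV promoter, 68.2% at Nid1 and 69.5% at Hspg2. The collagen IV promoter held 2 GC boxes and 1 CCAAT box, Hspg2 held 5 GC boxes and no CCAAT box, and Nid1 held 1 of each. Nid1 was the promoter of the 3 with a TEAD motif, the site bound by the partners of YAP and TAZ. The members had 7 RefSeq windows at 5 loci, of which the Col4a1 and Col4a2 windows share 78 bases and the 2 Lamb3 windows share 51, so a match can be counted more than once. Of these windows 5 held a GC box, 4 a CCAAT box and 2 the TEAD motif, against 35.7%, 37.4% and 14.7% of all 32851 windows of 300 bases. By locus, a GC box was found at 4 of the 5, a CCAAT box at 3 and the TEAD motif at 2. The AP-1 motif (TGANTCA), the RUNX motif (TGTGGT) and the SRF CArG box were in none of the 7 windows, and in 7.81%, 16.8% and 1.63% of all windows. A match is only a run of letters, and a motif absent from these windows may lie elsewhere in the locus.

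Between plastic and 32 kPa PDMS none of the 71 regions passed the authors' test. None of the 64217 regions in the authors' deposited table passed an FDR of 0.05, 0 regions or 0%, and every FDR was 1. At an unadjusted p under 0.05 there were 370 regions in all, 0.576%, and 0 of the 71 basement membrane regions. A p-value that misses the threshold does not show that the 2 surfaces gave equal levels. The 71 folds of plastic over 32 kPa in the authors' deposited table had a median of −0.04 and ranged from −1.36 to 1.15, against a median of 0.04 over all regions within 100 kb. Plastic was the higher at 32 of the 71, the lower at 38 and equal at 1.

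By locus the median fold of plastic over 32 kPa was −0.27 at Lamc1 (7 regions), −0.19 at Lama4 (8), −0.11 at the collagen IV locus (19) and −0.08 at Nid1 (9). It was −0.02 at Lamb3 (3), 0.01 at Hspg2 (7), 0.15 at Lamb1 (6) and 0.19 at Nid2 (12). The lowest p of the group was at a Lamb1 region in intron 21, 41.2 kb from the start, with 4.45 on plastic and 3.30 on 32 kPa (fold 1.15, unadjusted p = 0.0572 in the authors' deposited table). The largest difference in the other direction was in intron 4 of Lama4, with 2.46 on plastic and 3.82 on 32 kPa (fold −1.36, unadjusted p = 0.0851 in the authors' deposited table). The Lama4 region was the lowest of the 71 on plastic.

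**Figure D3:**
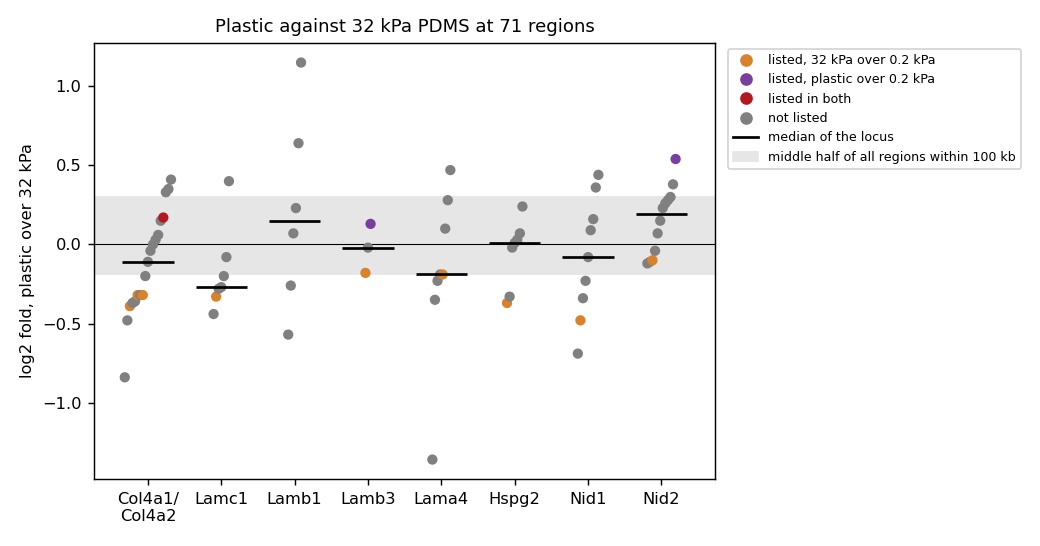
log2 fold of plastic over 32 kPa (vertical axis, from the authors' deposited table) for each of the 71 regions, grouped by locus. Lines are medians of the loci and the grey band is the interquartile range of all regions within 100 kb, −0.19 to 0.30. The points of most loci lie on both sides of 0, 6 of the 7 Lamc1 regions lie below it with a median of −0.27, and the widest spread is at Lamb1 and Lama4.

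Other genes of the basement membrane were examined as 4 lists of 63 genes in all, of which 33 had a region high enough to be listed for 32 kPa. Of these 33, 8 genes had a listed region on 32 kPa, and of 35 high enough on plastic 10 had one, against 17.2% and 15.5% of all genes with such a region. The median fold of plastic over 32 kPa was 0.10 over the 272 regions of these genes, against 0.04 over all regions within 100 kb.

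The list of further structural components of the basement membrane holds agrin and collagens XV and XVIII beside collagen IV and laminin chains. Of its genes, 0 of 5 high enough were listed for 32 kPa and 3 of 6 for plastic. These were Lama1, the laminin α1 chain of early embryonic and some epithelial basement membranes, with 5.33 on plastic and 4.05 on 0.2 kPa at an intron (FDR = 0.0264, fold 1.28 in the authors' deposited table), and Col4a3 and Col18a1. Col4a3, a collagen IV chain of glomerular and alveolar basement membrane, had 5.21 on plastic and 3.99 on 0.2 kPa (fold 1.22, FDR = 0.0327 in the authors' deposited table). Col18a1, the source of endostatin, had 5.61 on plastic and 4.52 on 0.2 kPa (fold 1.09, FDR = 0.0299 in the authors' deposited table). A difference between the comparisons in which genes were listed was not tested.

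In a broad list of proteins associated with the basement membrane, Sparc and Hmcn1 were listed for 32 kPa (2 of 7 genes). Sparc and Fbln5 were listed for plastic (2 of 7). Sparc, a collagen-binding glycoprotein, had 3 regions listed for plastic, with folds of 1.14, 1.19 and 1.26 in the authors' deposited table. Hmcn1, the gene of hemicentin 1, had 5.53 on 32 kPa and 4.31 on 0.2 kPa at an intron (fold 1.23, FDR = 0.0224 in the authors' deposited table). Fbln5, an elastic fibre protein, had 3 intronic regions listed for plastic, and the authors' deposited table gives folds between 1.04 and 1.40.

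Of the receptors, Dag1 and Ddr1 were listed for 32 kPa (2 of 9) and Ddr1, Itga2 and Itgb1 for plastic (3 of 9). Ddr1, a receptor kinase for collagens including collagen IV, had 3 regions listed for 32 kPa with folds of 1.14, 1.15 and 1.34 in the authors' deposited table. Its intronic region 2.48 kb from the start had 5.60 on 32 kPa and 4.25 on 0.2 kPa in the table of that pair, and 5.45 on plastic and 4.21 on 0.2 kPa in the other. The promoter of Dag1, which encodes the laminin receptor dystroglycan, had 6.59 on 32 kPa and 5.56 on 0.2 kPa (fold 1.03, FDR = 0.0119 in the authors' deposited table). The promoter of Itga2, a collagen-binding integrin chain, had 5.37 on plastic and 4.23 on 0.2 kPa (fold 1.14, FDR = 0.0409 in the authors' deposited table). An intergenic region 18.8 kb upstream of Itgb1, the common β chain of these integrins, had 5.72 on plastic and 4.72 on 0.2 kPa (fold 1.0, FDR = 0.0377 in the authors' deposited table).

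Among genes that assemble or remodel collagen IV and laminin, Serpinh1, P4ha1, Mmp14 and Timp3 were listed for 32 kPa (4 of 12) and Pxdn and Timp3 for plastic (2 of 13). Serpinh1, the collagen chaperone HSP47, had the lowest FDR of these lists, at a region 7.09 kb upstream (fold 1.26, FDR = 0.000419 in the authors' deposited table). P4ha1, a prolyl hydroxylase that stabilises the collagen helix, had 5.87 on 32 kPa and 4.61 on 0.2 kPa (fold 1.26, FDR = 0.0113 in the authors' deposited table). Pxdn, the peroxidasin that forms sulfilimine crosslinks in collagen IV, had 5.80 on plastic and 4.45 on 0.2 kPa (fold 1.35, FDR = 0.00601 in the authors' deposited table). The promoter of Mmp14, a membrane-bound matrix protease, had 5.58 on 32 kPa and 4.45 on 0.2 kPa (fold 1.13, FDR = 0.0316 in the authors' deposited table). Timp3, a matrix-bound protease inhibitor, had 2 regions listed for 32 kPa and 1 other for plastic, and the authors' deposited table gives folds between 1.11 and 1.27.

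**Figure D4:**
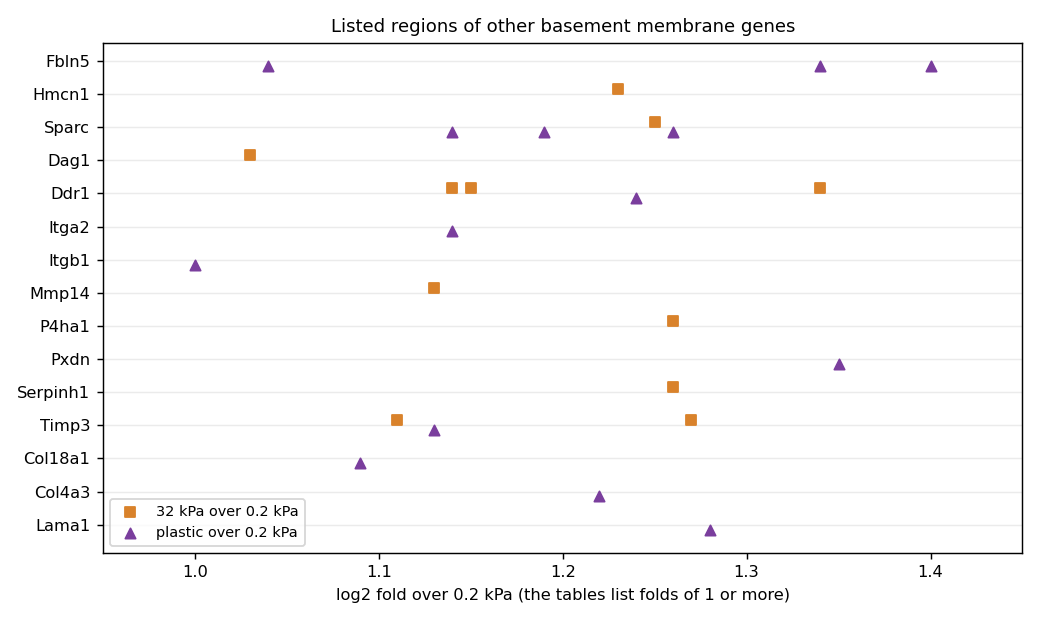
log2 fold over 0.2 kPa of each listed region (horizontal axis, from the authors' deposited tables) for the genes of the 4 further basement membrane lists (rows). Squares are 32 kPa and triangles plastic; the tables list folds of 1 or more, so every point lies at 1.0 or above, and the highest is 1.40 at Fbln5.

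The collagen IV region listed in both comparisons had folds of 1.03 on 32 kPa and 1.21 on plastic. Among 681 pairs of listed regions that overlapped between the authors' deposited tables, the nearest in these 2 folds belonged to Cd1d1 and Stk3, with the same folds of 1.03 and 1.21. Hpcal1 (1.03 and 1.23) and Wdr48 (1.03 and 1.19) tied for the next place, each at a distance of 0.02. Fastkd1 and Malat1 followed closely, at 0.022. The Hpcal1 region lay 191012 bases from its start, since the limit of 100 kb was not applied to these pairs. The likeness rests on 2 values per region that share their 0.2 kPa libraries.

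The distance limit did not divide close cases. The farthest region taken was 97.4 kb from the Col4a2 start, with 4.26 on plastic and 4.63 on 32 kPa. The nearest one left out was 125 kb from it, with 3.50 on plastic and 3.58 on 32 kPa.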

How the data were processed

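Omni-ATAC-seq libraries of 3 cultures, 2 per culture, were summarised by the authors in 3 tables, each setting 2 cultures side by side. BWA, Picard, MACS2, DiffBind and mm10 are named, without versions, per the submitters' processing notes; read shifting, peak merging and scaling are not given in the sources used here. Per the file headers, the deposited levels and folds are on a log2 scale, and each p-value and FDR was computed by the authors. Gene names, locations and distances came from the deposited annotation (HOMER, per the file headers).

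In the tables with 0.2 kPa the sides are called Control and Treat. Control was read as the stiffer culture because its value equalled the named 32 kPa column at 643 of 643 intervals held by both tables, and lay 0.01 to 0.02 above the named plastic column at 653 intervals. Starts in these tables count from 0 and were raised by 1 base. A repeated header line was dropped. Every listed fold was at least 1 and every listed FDR at most 0.05. A region was the same in 2 tables when the overlap covered 50% or more of each interval, and listing was counted at an overlap of 1 bp. The level per 100 bases is the log2 level minus the log2 of the width over 100.

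Members and gene lists were chosen with earlier results of these data known. Named were the members with each listed region and the highest region of each locus, the further basement membrane genes with a listed region, and the 3 genes, ties included, nearest in their pair of folds. No test was run, since the tables hold means; overlap and motif functions were tested on simulated data. Python 3.11.15, pandas 2.3.3, numpy 2.4.6 and matplotlib 3.10.9 were used.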

Additional observations from a re-analysis of the deposited data

How the results depend on the processing

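With a limit of 10 kb in place of 100 kb, the regions fell to 17 of 71, those listed for 32 kPa to 1 of 10 (the Lamc1 promoter) and those listed for plastic to 0 of 3. With an FDR of at most 0.01 they were 3 for 32 kPa (2 at the collagen IV locus and the Lamc1 promoter) and 1 for plastic. The other basement membrane genes listed were 5 of 8 for 32 kPa and 4 of 10 for plastic within 10 kb, and 3 for 32 kPa and 3 for plastic at an FDR of at most 0.01. With no limit on distance the regions were 74 and the listed ones as before, 10 and 3. A level on all 3 cultures was found for 13 listings at an overlap of 1 bp and 11 at 90% of both lengths, and the median excess of the other stiffer culture over 0.2 kPa, over these listings, was 0.92 in each case. The count of 0 regions past FDR 0.05 between plastic and 32 kPa was 0 under each alternative. No setting could have changed it, since none of all 64217 regions passed.

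No paired analysis was possible because the tables hold 1 mean per culture and no value per library; for the same reason no library was left out, and the depth behind each level is unknown. Genes are named by the closest start alone, and regions under a fold of 1 over 0.2 kPa were not analysed here.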
